A study of Mus musculus with 4 samples.

Results

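Arginine and tryptophan can be consumed by a small set of enzymes and carriers, and 8 of their genes were followed here through the cells of mouse ovarian tumours: Arg1, Arg2, Nos2, Slc7a2, Ass1, Odc1, Il4i1 and Ido1. They were chosen by gene symbol, and all 8 were found among the 32285 genes counted. The study injected recombinant mouse IL-27 (rmIL-27), a cytokine that signals through the receptor chains Il27ra and Il6st, or vehicle into subcutaneous tumours of OV2944-HM1, a transplantable mouse ovarian cancer line, in B6C3F1 mice aged 6 to 8 weeks. In the IL_27 group each mouse received 100 ng of rmIL-27 on the day of implantation and every other day after it, and in the control group vehicle was given in its place. Tumours of both groups were taken on day 14, digested and enriched for CD45, the pan-leukocyte surface marker, with magnetic beads. Droplet 5′ single-cell RNA sequencing gave 1 count matrix per group. The number of mice behind a matrix is not given in the sources used here, and no cell could be traced to a mouse. There is thus 1 sample per group, no test was possible, and every interval below is a 95% interval that covers counting error only.

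Arginase, encoded by Arg1 in the cytosol and Arg2 in the mitochondrion, splits arginine into ornithine and urea. Nitric oxide synthase from Nos2 uses the same arginine to make nitric oxide and citrulline, and Slc7a2 encodes a cationic amino acid carrier that brings arginine into the cell. Odc1 turns ornithine into putrescine, the first polyamine, while Ass1 takes citrulline back towards arginine. Ido1 opens the tryptophan ring on the way to kynurenine, and Il4i1 encodes a secreted oxidase of aromatic amino acids. In tumours these genes are known mainly from myeloid cells, where loss of arginine and tryptophan restrains T cells.

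On the mouse build GRCm38 (GENCODE release M21), all 8 are protein-coding genes. Arg1 (ENSMUSG00000019987) lies on the minus strand at chr10:24915221-24927484 and Arg2 (ENSMUSG00000021125) on the plus strand at chr12:79130777-79156301. Nos2 (ENSMUSG00000020826) is at chr11:78920787-78960254, plus strand, and Slc7a2 (ENSMUSG00000031596) at chr8:40862396-40922308, plus strand. Ass1 (ENSMUSG00000076441) is at chr2:31470207-31520672, plus strand, and Odc1 (ENSMUSG00000011179) at chr12:17544794-17551505, plus strand. Il4i1 (ENSMUSG00000074141) is at chr7:44816387-44840809, plus strand, and Ido1 (ENSMUSG00000031551) at chr8:24584136-24597009, minus strand.

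Promoter sequences from RefSeq (GRCm38.p6) were matched for only 3 of the 8 members, Ass1, Odc1 and Il4i1, and are shown for that reason. Odc1 was present in every class, Ass1 was spread over T cells, dendritic cells and monocytes, and Il4i1 was found mainly in dendritic cells. Each line gives the 250 bases before the RefSeq start, 5′ to 3′ on the plus strand. The windows are chr2:31470020-31470269 for Ass1, chr12:17544623-17544872 for Odc1 and chr7:44836038-44836287 for Il4i1. That of Il4i1 lies wholly inside the GENCODE span of its gene, and those of Ass1 and Odc1 end inside the spans of those genes. Capitals mark the GC box (GGGCGG on either strand) and the E-box (CACGTG).
Ass1: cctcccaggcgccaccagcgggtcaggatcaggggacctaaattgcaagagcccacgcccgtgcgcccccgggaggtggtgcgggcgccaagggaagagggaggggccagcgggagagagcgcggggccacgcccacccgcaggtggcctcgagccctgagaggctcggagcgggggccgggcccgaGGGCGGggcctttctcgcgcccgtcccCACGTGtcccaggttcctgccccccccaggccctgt
Odc1: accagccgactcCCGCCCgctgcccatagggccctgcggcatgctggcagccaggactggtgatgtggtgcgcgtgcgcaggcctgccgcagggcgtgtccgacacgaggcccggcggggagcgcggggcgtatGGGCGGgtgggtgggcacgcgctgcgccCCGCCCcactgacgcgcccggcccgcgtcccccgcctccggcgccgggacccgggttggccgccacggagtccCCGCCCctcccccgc
Il4i1: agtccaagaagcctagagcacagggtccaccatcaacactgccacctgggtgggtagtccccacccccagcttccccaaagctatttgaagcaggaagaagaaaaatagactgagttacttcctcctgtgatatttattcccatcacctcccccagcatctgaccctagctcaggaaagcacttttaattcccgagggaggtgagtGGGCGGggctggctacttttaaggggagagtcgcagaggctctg
Odc1 holds 4 GC boxes, and Ass1 and Il4i1 hold 1 each. The window of Ass1 also holds the E-box, 36 bases before the start. A GC box was found in 32.7% and an E-box in 6.02% of 32851 mouse promoters of the same length. The TATA box (TATAAA), the GAS (TTCNNNGAA), the STAT6 site (a GAS with 1 more base in its gap) and the ISRE core had no match in the 3 windows on either strand, against 12.4%, 7.02%, 5.85% and 2.98% of all promoters. The base composition differed, with 75.6% G and C in Ass1, 80.0% in Odc1 and 53.2% in Il4i1. A match here is a description of letters and not a binding site.

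The IL_27 matrix held 9990 kept cells with a median of 1870.5 UMIs (unique molecules), and the control matrix held 10617 with a median of 2408 UMIs. Cells were sorted into classes by UMIs of fixed marker genes, and the class names rest on those transcripts alone. Although the samples are labelled as lymphocytes, neutrophils were the most numerous class, with 38.3% of IL_27 and 45.0% of control cells, and T cells made up 6.03% and 5.30%. C1q macrophages (marked by C1qa, C1qb, C1qc and Apoe) numbered 1121 in the IL_27 matrix and 1256 in the control matrix. Macrophages marked by Dcstamp and Mmp12 numbered 757 and 716, monocytes 481 and 362, and mature dendritic cells with Ccr7 and Fscn1 218 and 149. A further 552 and 715 cells carried markers of several lineages and were set apart as mixed, and 1900 and 1558 shallow cells, with medians of 943 and 999 UMIs, stayed unassigned. Levels are given as CPM, the UMIs of a gene per 1000000 UMIs of the class. A ratio is always IL_27 over control and is called higher or lower where it reaches 1.5 in either direction with at least 20 UMIs over both matrices.

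**Figure D1:**
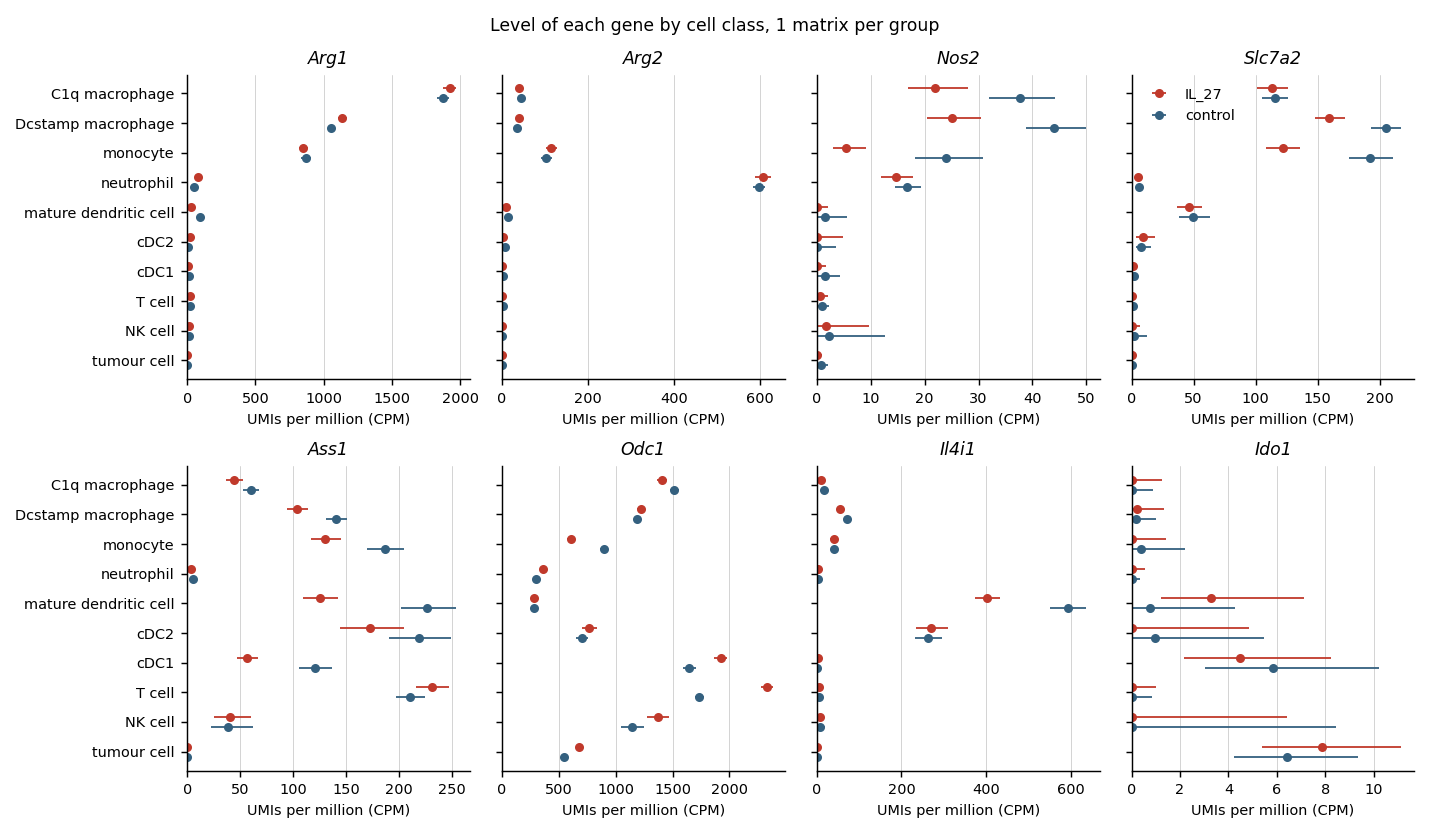
Level of each of the 8 genes (CPM, x axis) in 10 cell classes (y axis), with IL_27 in red above control in blue; bars are 95% Poisson intervals for counting error, and each group is 1 matrix. Arg1 stands highest in C1q macrophages (1923 CPM in IL_27, 1876 CPM in control), Arg2 in neutrophils, Il4i1 in mature dendritic cells and Odc1 in T cells, and each panel has its own axis.

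Arg1 was a gene of macrophages and monocytes. In C1q macrophages it stood at 1923 CPM (1873 to 1974) in the IL_27 matrix and 1876 CPM (1834 to 1918) in the control matrix, and 64.5% of these cells held an Arg1 UMI in each of them. The gene was lower in Dcstamp macrophages, at 1138 CPM in IL_27 and 1057 CPM in control, and lower again in monocytes, at 852 and 868 CPM. The intervals of these 3 classes did not overlap in either matrix. The Arg1 UMIs were spread over many cells, since the 10 cells with most Arg1 held 11.9% of the Arg1 UMIs of C1q macrophages in IL_27 and 11.1% in control. Outside the 3 classes the level was low: T cells had 20.2 CPM in IL_27 and 19.0 CPM in control. At an equal depth of 1000 UMIs per cell, 1.55% of IL_27 and 1.76% of control T cells would show Arg1, against 56.8% and 57.4% of C1q macrophages. T cells are not known as a source of arginase 1, and their share is given for comparison. Its source, such as free RNA in the droplets or doublets, was not tested.

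In the 3 classes where Arg1 was abundant its ratio was 1.03 (0.991 to 1.06) in C1q macrophages, 1.08 (1.04 to 1.12) in Dcstamp macrophages and 0.981 (0.925 to 1.04) in monocytes. Weighting every cell equally gave 1.10, 1.07 and 1.09, and scaling by TMM (a trimmed mean of log ratios over genes) gave 0.985 in C1q macrophages. None of the 3 classes reached 1.5-fold under these settings. Levels differed more between kinds of macrophage. A cluster of 405 IL_27 and 416 control cells led by Gm15056, Ppbp and Pf4, which took no class name, held 3509 CPM of Arg1 in IL_27 and 3007 CPM in control. C1q macrophages that fell into this cluster had 4155 and 3439 CPM, a ratio of 1.21 (1.13 to 1.30), and Dcstamp macrophages in it had 3160.5 and 2556 CPM, a ratio of 1.24 (1.16 to 1.32). In the main Dcstamp cluster the level was 902 CPM in IL_27 and 740.1 CPM in control, with a ratio of 1.22 (1.15 to 1.29). The ratio of the whole class, 1.08, was smaller than that of either of its 2 main clusters, and the high-Arg1 cluster held 104 of 757 IL_27 and 131 of 716 control cells of the class. The C1q macrophages of the cluster led by Ccl8, Apoe and Folr2, the most numerous, had 1688 and 1805 CPM, a ratio of 0.935 (0.884 to 0.989). Clusters were computed without the 8 genes, but other genes of the same cells set them, so these levels are a description.

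Arg2 was a neutrophil gene. It stood at 607 CPM (588 to 626) in IL_27 neutrophils and 596 CPM (582 to 611) in control neutrophils, which held 76.6% and 81.9% of all Arg2 UMIs of their matrix. Monocytes followed at 114 and 103 CPM, and both kinds of macrophage lay between 35.1 and 45.0 CPM in both matrices. At an equal depth of 1000 UMIs, Arg2 would be seen in 42.4% of IL_27 and 40.6% of control neutrophils. The unthinned shares of 54.8% and 60.1% differed more, but so did the depth, with medians of 1606 and 2146 UMIs. The ratio was 1.02 (0.978 to 1.06), and 0.947 when scaled by TMM, which moves the neutrophil ratios by 0.10 on the log2 scale. Among the neutrophil clusters Arg2 was lowest in the one led by Il23a and Tnf, at 462 CPM in IL_27 and 499 CPM in control, and high in the one led by Cxcr2 and Retnlg, at 746 and 703 CPM.

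Arg1 in neutrophils was the one member at least 1.5 times higher in the IL_27 matrix, at 76.5 CPM against 46.9 CPM in control, a ratio of 1.63 (1.44 to 1.85). Of the 7 members with enough UMIs in neutrophils, Arg1 was higher, and Il4i1 (13 and 41 UMIs) and Ass1 (24 and 64 UMIs) were lower with intervals that include 1. Over all genes with enough UMIs in neutrophils, 13.2% were higher and 8.49% lower by the same rule. The Arg1 value rested in part on few cells. In the IL_27 matrix 73 neutrophils lay outside the 5 neutrophil clusters and held 214 of the 512 Arg1 UMIs, and in the control matrix 99 such cells held 151 of 526. Neutrophils inside the neutrophil clusters had 46.2 CPM in IL_27 and 34.1 CPM in control, and the ratio there was 1.36 (1.16 to 1.58), below the 1.5 rule. Classes taken from whole clusters gave 1.21, equal weight for every cell 1.41 and mixed cells kept 1.44, all below it too. Scaling by TMM gave 1.52, and leaving out the cells with the top doublet scores raised the ratio above its counting interval of 1.44 to 1.85. The clusters differed among themselves, with ratios of 1.91 (1.42 to 2.60) in the Cxcr2 and Retnlg cluster, 1.61 (1.21 to 2.15) in a cluster led by Il23a and Tnf and 0.529 (0.302 to 0.896) in a cluster led by Cstdc4 and Stfa2l1. At 1000 UMIs per cell, 4.32% of IL_27 and 2.71% of control neutrophils would show Arg1, above the shares of T cells.

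Nos2 was rare, with 406 UMIs in all kept IL_27 cells and 850 in all kept control cells. Dcstamp macrophages had 25.1 CPM in IL_27 and 44.1 CPM in control, from 104 and 246 UMIs. C1q macrophages had 22.0 CPM in IL_27 and 37.7 CPM in control, from 65 and 155 UMIs. Monocytes had 5.43 CPM in IL_27 and 24.0 CPM in control, from 14 and 60 UMIs. In each of these 3 classes the IL_27 interval lay below the control interval. Neutrophils had 14.7 and 16.8 CPM, with intervals that overlap. T cells held 2 and 4 Nos2 UMIs in all, and 0.332% and 0.533% of them showed the gene.

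The ratio of Nos2 was 0.569 (0.448 to 0.718) in Dcstamp macrophages, 0.584 (0.430 to 0.785) in C1q macrophages and 0.227 (0.117 to 0.410) in monocytes, all lower by the 1.5 rule. It was 0.875 (0.678 to 1.12) in neutrophils. With every cell weighted equally the 3 lower values became 0.621, 0.569 and 0.399, and with mixed cells kept the monocyte value was 0.412. With classes taken from clusters the Dcstamp value was 0.735, which ends that call. At 1000 UMIs per cell Nos2 would be seen in 2.41% of IL_27 and 2.99% of control Dcstamp macrophages, 1.70% and 3.17% of C1q macrophages, and 0.735% and 2.17% of monocytes. The Nos2 UMIs came from few cells: the 10 cells with most Nos2 held 57.7% of those of Dcstamp macrophages in IL_27 and 52.4% in control, and in IL_27 monocytes all 14 UMIs came from 10 cells.

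Where cells of a class were split by cluster, the difference in Nos2 was not even. Dcstamp macrophages of the main Dcstamp cluster had 15.6 CPM in IL_27 and 16.4 CPM in control, a ratio of 0.949 (0.615 to 1.45). Those in the Gm15056, Ppbp and Pf4 cluster had 95.1 and 135 CPM, a ratio of 0.705 (0.497 to 0.985). A further 49 of the 246 control UMIs lay in 23 control cells of a cluster led by Hspa1b, Rsad2 and Nos2 itself, which had 91.7 and 192 CPM of Nos2 over all its cells. C1q macrophages of the Ccl8 and Folr2 cluster had 9.49 CPM in IL_27 and 28.6 CPM in control, a ratio of 0.332 (0.160 to 0.635), while those in the Gm15056, Ppbp and Pf4 cluster had 90.2 and 93.7 CPM, a ratio of 0.964 (0.586 to 1.54). Of the 98 IL_27 and 188 control Nos2 UMIs of neutrophils, 62 and 90 lay in a cluster led by Hspa1a, Atf3 and other stress genes. There the direction was the opposite, at 55.0 CPM in IL_27 and 35.7 CPM in control, a ratio of 1.54 (1.10 to 2.16). In the Cstdc4 and Stfa2l1 cluster it was 0.229 (0.0784 to 0.553), from 6 and 33 UMIs. Stress genes lead both of the clusters with Hspa1a or Hspa1b, and their part in the Nos2 level was not tested.

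**Figure D2:**
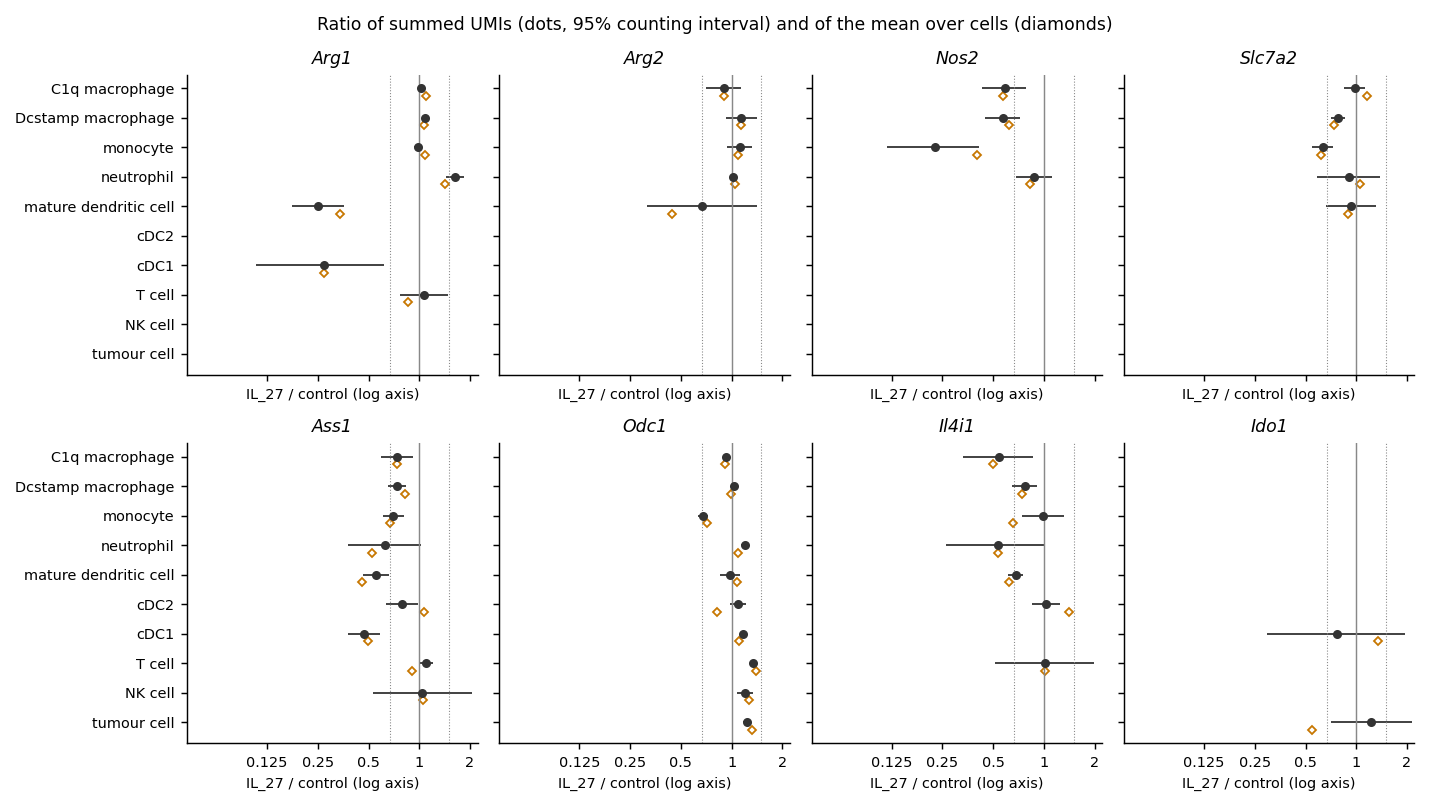
Ratio of IL_27 over control on a log x axis, by cell class (y axis), for each gene with at least 20 UMIs over both matrices; dots are summed UMIs with 95% counting intervals, diamonds the ratio of means over cells, and dotted lines mark 1.5 in either direction. By summed UMIs Nos2 lies below 1 in all 4 of its classes (0.227 to 0.875), and Odc1 spans 0.675 in monocytes to 1.34 in T cells.

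Arg1 and Nos2 compete for the same amino acid and are often read as opposite macrophage states, so their overlap in single cells was measured. In C1q macrophages of the IL_27 matrix, 4.29% (2.93 to 6.03) of 723 cells with Arg1 also held Nos2, against 1.26% (0.409 to 2.91) of 398 cells without Arg1. In the control matrix the shares were 8.89% (7.02 to 11.1) of 810 cells with Arg1 and 0.897% (0.245 to 2.28) of 446 cells without it. In Dcstamp macrophages they were 8.20% of 500 and 0.778% of 257 cells in IL_27, and 12.2% of 458 and 5.04% of 258 cells in control. In monocytes they were 3.96% of 227 and 0.394% of 254 cells in IL_27, and 11.2% of 188 and 1.72% of 174 cells in control. In all 6 of these comparisons Nos2 was found more often in the cells that held Arg1. Only in IL_27 monocytes did the 2 intervals overlap, at 1.83 to 7.39 and 0.00997 to 2.17, from 9 and 1 cells with Nos2.

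Seen from the other side, most macrophages and monocytes with Nos2 held Arg1. Among C1q macrophages with Nos2, Arg1 was found in 31 of 36 IL_27 cells (86.1%, 70.5 to 95.3) and 72 of 76 control cells (94.7%, 87.1 to 98.5). Among Dcstamp macrophages with Nos2 the shares were 95.3% in IL_27 and 81.2% in control, against 64.3% and 62.1% of those without Nos2. In neutrophils Arg1 was found in 12.7% of IL_27 and 9.79% of control cells with Nos2, against 6.29% and 4.90% of those without Nos2.

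Deeper cells show more genes, so the overlap was also computed at 1000 UMIs per cell, as the share expected over all draws. In C1q macrophages Nos2 was then expected in 2.41% of IL_27 cells with Arg1 and 0.770% of those without, and in 4.86% and 0.885% of control cells. In Dcstamp macrophages the shares were 4.29% and 0.777% in IL_27, and 4.90% and 1.496% in control. The overlap thus remained at equal depth in both classes and both matrices, while the gap between IL_27 and control in the Arg1-bearing Dcstamp macrophages shrank to under 1 percentage point. No interval was computed for these expected shares. By 1 draw of 1000 UMIs the intervals with and without Arg1 overlapped in IL_27 C1q macrophages and in control Dcstamp macrophages.

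**Figure D3:**
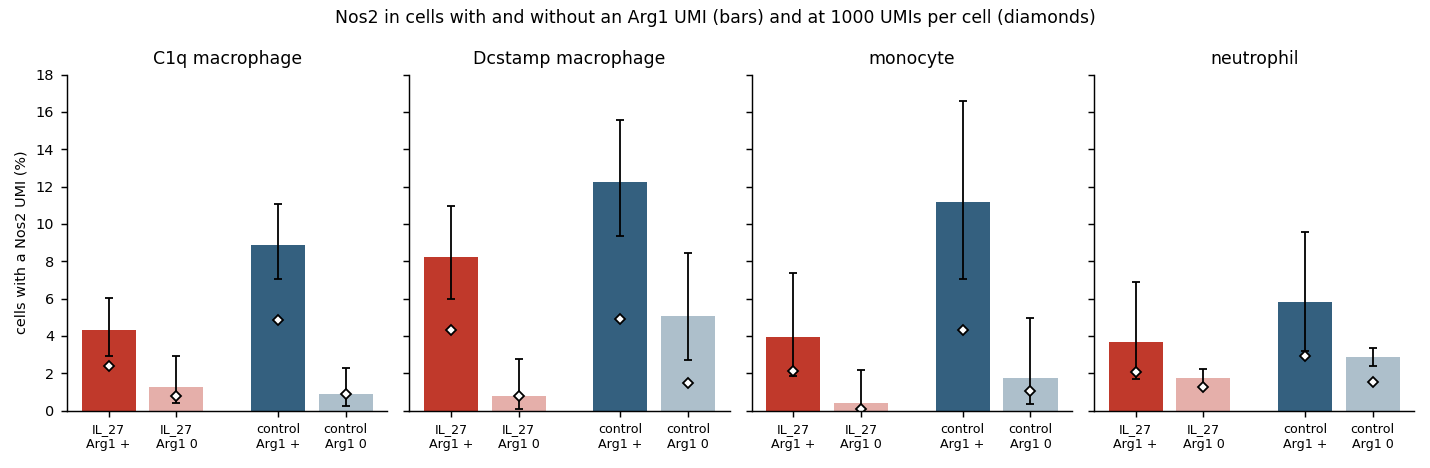
Share of cells with a Nos2 UMI (y axis, percent) among cells with an Arg1 UMI (full colour) and without one (pale), in IL_27 (red) and control (blue), by class; bars show the deposited counts with 95% Clopper-Pearson intervals and diamonds the share expected at 1000 UMIs per cell. In both macrophage classes and in monocytes the cells with Arg1 stand above those without, up to 12.2% against 5.04% in control Dcstamp macrophages.

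The share of cells with Nos2 was also taken in 4 steps of the Arg1 level, given as Arg1 UMIs per 10000 UMIs of the cell. In all 3 classes and both matrices it was higher in the top step than in cells with no Arg1, but in 4 of the 6 series it did not increase at every step. In Dcstamp macrophages of the IL_27 matrix it was 0.778% with no Arg1, 2.5% at up to 10, 10.2% above 10 and up to 40, and 16.7% (9.42 to 26.4) above 40. In the control matrix the same steps gave 5.04%, 3.30%, 13.1% and 32.9% (22.1 to 45.1). Cells in the top step were not the deepest ones, with medians of 2634.5 UMIs in IL_27 and 5546.5 UMIs in control, against 4504 and 6761.5 UMIs in cells with no Arg1. In monocytes the steps gave 0.394%, 0%, 1.16% and 14.8% (6.62 to 27.1) in IL_27, and 1.72%, 6.02%, 9.46% and 29.0% (14.2 to 48.0) in control. In C1q macrophages they gave 1.26%, 0%, 4.25% (2.40 to 6.91) and 8.56% in IL_27, and 0.897%, 3.21%, 10.96% (8.22 to 14.2) and 9.66% in control. The steps at 0% rested on 183 C1q macrophages and 87 monocytes.

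**Figure D4:**
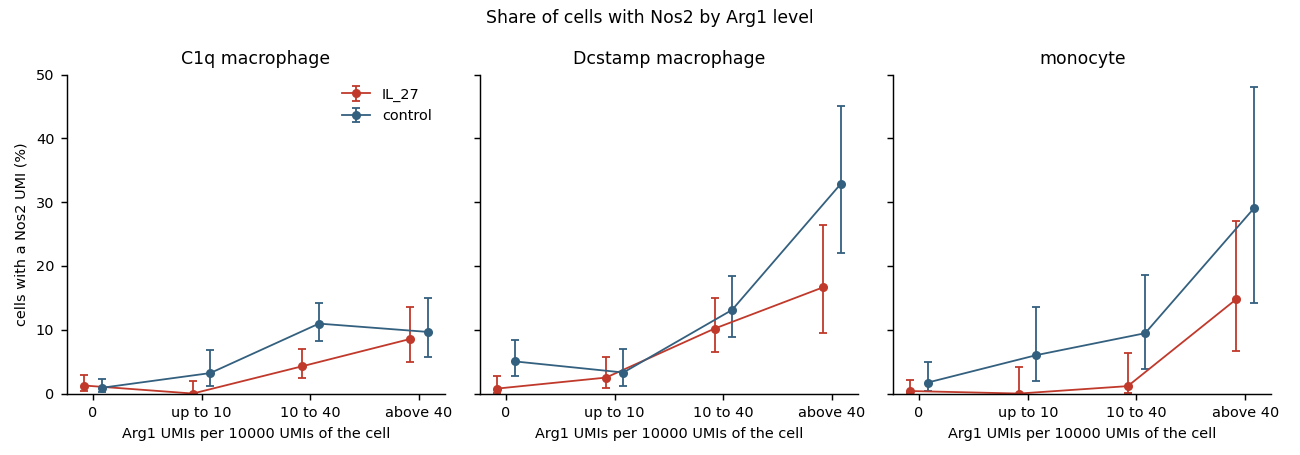
Share of cells with a Nos2 UMI (y axis, percent, 95% Clopper-Pearson interval) by the Arg1 UMIs per 10000 UMIs of the cell (x axis, 4 steps), in IL_27 (red) and control (blue). Dcstamp macrophages reach 16.7% in IL_27 and 32.9% in control above 40, and monocytes 14.8% and 29.0%.

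Across 21 pools of cells of 1 class and 1 matrix, the log2 levels of Arg1 and Nos2 had a Pearson r of 0.851; pools of a matrix share a library. Of 9295 other genes, those with the pattern most like Arg1 were Msr1 (r = 0.951), a scavenger receptor of macrophages, Tfec (0.9401), Rnase2a (0.939), Pf4 (0.935) and Cebpa (0.927). Those most like Nos2 were Mmp8 (0.905), a neutrophil collagenase, Ap3s1 (0.890), Fam20c (0.884), Pdpn (0.864) and C5ar1 (0.862), the complement C5a receptor.

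Slc7a2, the arginine carrier, was found in the same classes as Arg1. It stood at 159 CPM (147 to 172) in IL_27 and 205 CPM (193 to 217) in control Dcstamp macrophages, a ratio of 0.778 (0.706 to 0.857). In monocytes it stood at 122 CPM in IL_27 and 192 CPM in control, a ratio of 0.633 (0.547 to 0.731), lower by the 1.5 rule. In C1q macrophages the levels of 113 and 115 CPM differed by less than their counting error, with a ratio of 0.980 by summed UMIs and 1.16 with equal weight for every cell. Mature dendritic cells had 45.9 and 49.2 CPM, and T cells held 2 and 4 UMIs in all. At 1000 UMIs per cell, the expected share with Slc7a2 was higher among cells with Arg1 than among cells without it: 17.5% and 10.2% in IL_27 and 20.5% and 14.4% in control Dcstamp macrophages, and 11.3% and 5.36% in IL_27 and 10.1% and 5.09% in control C1q macrophages. For Odc1 the order differed between classes. In Dcstamp macrophages it was expected less often beside Arg1 than without it, with 51.8% and 59.2% in IL_27 and 53.4% and 60.4% in control. In C1q macrophages the shares were close, with 59.2% and 60.7% in IL_27 and 61.9% and 62.8% in control. By 1 draw of 1000 UMIs per cell, the intervals with and without Arg1 overlapped in both macrophage classes and both matrices. In monocytes it was expected more often beside Arg1, with 38.7% and 30.6% in IL_27 and 47.3% and 40.7% in control, and likewise in neutrophils, with 23.0% and 17.2% in IL_27 and 25.2% and 15.8% in control.

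Ass1 was spread over T cells, dendritic cells and monocytes, and most of its ratios lay below 1. T cells had 232 CPM in IL_27 and 211 CPM in control, cDC2 (conventional dendritic cells with Cd209a and Clec10a) 173 and 219 CPM, mature dendritic cells 125 and 227 CPM, and monocytes 131 and 187 CPM. T cells were highest in IL_27, clear of the next class, while in control mature dendritic cells, cDC2, T cells and monocytes followed each other with overlapping intervals. Ass1 was below 1 in 7 of 9 classes, all but T and NK cells, with 0.469 (0.376 to 0.584) in cDC1 (dendritic cells with Xcr1 and Clec9a), 0.552 (0.462 to 0.658) in mature dendritic cells, 0.699 (0.606 to 0.806) in monocytes, 0.736 (0.591 to 0.913) in C1q macrophages and 0.737 (0.654 to 0.830) in Dcstamp macrophages. With every cell weighted equally its ratio in cDC2, 0.791 (0.633 to 0.985), became 1.06.

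Odc1 was found in all 10 classes and was highest in T cells, at 2330.3 CPM (2281 to 2381) in IL_27 and 1734 CPM (1696 to 1773) in control. cDC1 followed at 1923 and 1649 CPM, and in control its interval overlapped that of T cells. C1q macrophages had 1407 and 1516 CPM, Dcstamp macrophages 1224 and 1186 CPM, and mature dendritic cells were lowest at 279.9 and 285 CPM, a ratio of 0.983 (0.859 to 1.13). No class reached the 1.5 rule. By summed UMIs the ratio was highest in T cells, at 1.34 (1.30 to 1.39), and lowest in monocytes, at 0.675 (0.632 to 0.720). In tumour cells it was 1.23 (1.16 to 1.30), and 1.42 (1.37 to 1.47) when tumour-led cells with markers of other lineages were included.

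Odc1 differed between kinds of T cell, and the 2 matrices held these kinds in different numbers. T cells with a Foxp3 UMI, the regulatory T cell factor, numbered 289 in IL_27 and 197 in control, and T cells with Cd8a but no Foxp3 numbered 82 and 228. Odc1 stood at 2881 CPM in IL_27 and 2628 CPM in control in the Foxp3 cells, a ratio of 1.10 (1.05 to 1.14). The Cd8a cells had 928 CPM in IL_27 and 1110.2 CPM in control, a ratio of 0.836 (0.769 to 0.908). Cells with Cd4 alone had 2598 and 2329.8 CPM, with a ratio of 1.11 (1.01 to 1.23), and cells with none of the 3 genes had 2267 and 1663 CPM, with a ratio of 1.36 (1.22 to 1.52). In 3 of the 4 gates the ratio was smaller than 1.34, and in the Cd8a gate it lay below 1. Ass1 also differed between the gates: the Foxp3 cells had 363 CPM in IL_27 and 479 CPM in control, a ratio of 0.758 (0.682 to 0.843), and the Cd8a cells had 31.6 and 22.4 CPM. The class ratio of Ass1 in T cells, 1.10 (1.00 to 1.21), lay above 1 (0.906 with equal weight for every cell) while the Foxp3, the Cd4 and the remaining cells had ratios of 0.758, 0.464 and 0.661. At 1000 UMIs per cell, Ass1 was expected in 21.7% of IL_27 T cells with Odc1 and 13.7% of those without, and in 22.3% and 12.1% of control T cells.

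**Figure D5:**
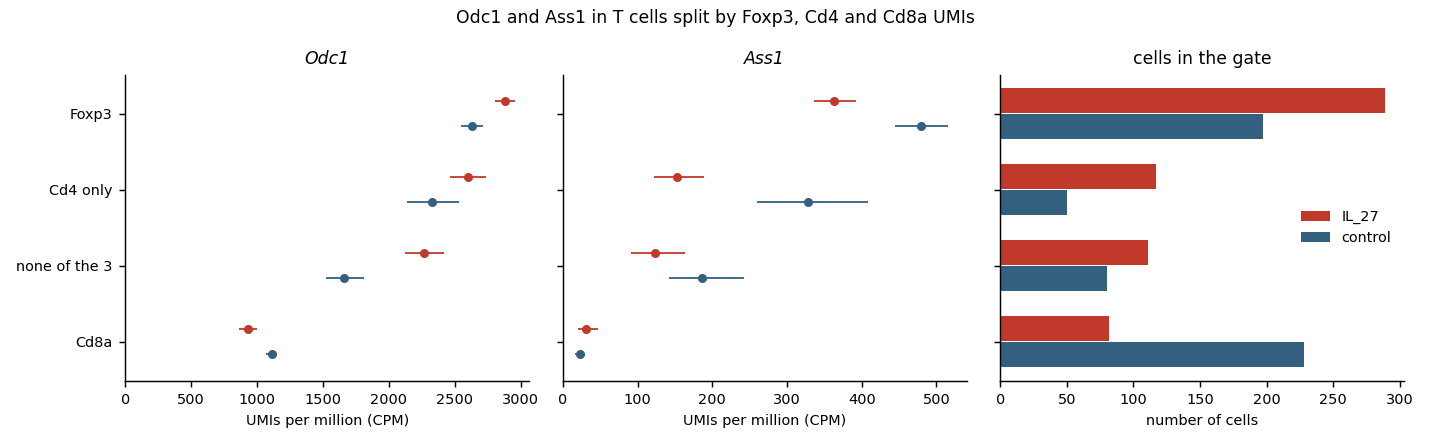
Odc1 and Ass1 levels (CPM, 95% Poisson interval) and number of cells in T cells split by Foxp3, Cd4 and Cd8a UMIs (y axis), with IL_27 in red above control in blue. Foxp3 cells number 289 in IL_27 and 197 in control and hold 2881 and 2628 CPM of Odc1, while Cd8a cells number 82 and 228 and hold 928 and 1110.2 CPM.

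Il4i1 was a gene of mature dendritic cells and cDC2. Mature dendritic cells had 404 CPM (375 to 434) in IL_27 and 593 CPM (552 to 637) in control, a ratio of 0.680 (0.614 to 0.753), short of the 1.5 rule. With every cell weighted equally the ratio was 0.617. The expected share at 1000 UMIs was 21.8% in IL_27 and 28.5% in control mature dendritic cells. cDC2 had 270.0 CPM in IL_27 and 262 CPM in control, a ratio of 1.03 (0.855 to 1.24). Dcstamp macrophages had 55.2 and 71.9 CPM, a ratio of 0.768 (0.650 to 0.906), and C1q macrophages 8.81 and 16.3 CPM from 26 and 67 UMIs, a ratio of 0.541 (0.330 to 0.862). With classes from clusters that ratio was 0.669, which ends the call. Monocytes had 39.5 and 39.9 CPM, a ratio of 0.991 (0.744 to 1.32), which became 0.657 with equal weight for every cell and 0.622 with classes from clusters. Within Dcstamp macrophages Il4i1 was found less often beside Arg1: at 1000 UMIs, it was expected in 1.503% of IL_27 cells with Arg1 and 4.34% of those without, and in 1.70% and 5.14% of control cells.

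Ido1 was rare in the leukocytes. C1q macrophages, neutrophils and T cells held no Ido1 UMI in either matrix, which allows shares of up to 0.268%, 0.0784% and 0.498% of IL_27 cells and up to 0.239%, 0.0628% and 0.533% of control cells with a UMI. Of 279 Ido1 UMIs in IL_27 and 415 in control, 256 and 368 lay in tumour-led cells, that is, cells whose leading markers were those of tumour cells, such as Krt8 and Krt18. In these cells Ido1 stood at 26.2 CPM (23.1 to 29.6) in IL_27 and 31.7 CPM (28.6 to 35.1) in control, a ratio of 0.826 (0.701 to 0.971), and 20.5% of 200 IL_27 and 22.2% of 261 control cells held it. The counts were very uneven, since 1 IL_27 cell held 147 UMIs and 1 control cell 90. In cDC1, Ido1 was found with 10 UMIs in 6 of 135 IL_27 cells and 12 UMIs in 11 of 135 control cells. Of the tumour-led cells, 98 of 200 in IL_27 and 127 of 261 in control also carried markers of another lineage, with medians of 55626 and 53653 UMIs, and these held 224 and 341 of the Ido1 UMIs. Tumour cells without such markers had 7.88 CPM in IL_27 and 6.42 CPM in control, from 32 and 27 UMIs, with the ratio in the other direction at 1.23 (0.712 to 2.13), and 0.548 with equal weight for every cell. Doublets were not removed, and their part in this was not tested.

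Of the 80 pairs of member and class, 49 had enough UMIs for a ratio, and of these 1 was higher, 11 were lower and 37 lay within 1.5-fold. In C1q macrophages 2 of 7 members were lower (Nos2 and Il4i1), against 6.5% of all genes, with 7.5% higher. In Dcstamp macrophages 1 of 7 was lower (Nos2), against 7.38% of all genes, with 5.94% higher. In monocytes 2 of 7 were lower (Nos2 and Slc7a2), against 10.0%, with 7.66% higher. In cDC1 2 of 4 were lower (Arg1 and Ass1), against 7.76%, with 10.5% higher, and in mature dendritic cells 2 of 6 were lower (Arg1 and Ass1), against 10.4%, with 12.3% higher. No member was called among 3 in cDC2, 4 in T cells, 2 in NK cells and 2 in tumour cells, where 13%, 10.8%, 13.6% and 11.4% of all genes were higher and 13.3%, 10.4%, 13.8% and 8.47% lower. The median log2 ratio of the members was -0.15 in neutrophils, -0.16 in C1q macrophages, -0.36 in Dcstamp macrophages, -0.52 in monocytes and -0.57 in mature dendritic cells, against 0.06, 0.04, 0.00, -0.03 and 0.02 over all genes. Fewer members entered the median elsewhere, which was -0.74 in cDC1, 0.04 in cDC2, 0.11 in T cells, 0.15 in NK cells and 0.30 in tumour cells, against 0.03, -0.01, -0.01, -0.02 and 0.03 over all genes.

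Arg1 in the 3 dendritic classes rested on small counts and did not go one way. cDC1 held 8 Arg1 UMIs in IL_27 and 27 in control, a ratio of 0.273 (0.107 to 0.617). Mature dendritic cells held 45 and 127, a ratio of 0.252 (0.175 to 0.356), in only 12 and 13 cells. With classes from clusters the 2 ratios were 0.1246 and 0.153. At 1000 UMIs per cell the expected shares were 0.876% in IL_27 and 2.37% in control cDC1, and 2.00% and 3.99% in mature dendritic cells. T cells lie at 1.55% and 1.76%, near the values of cDC1 and of IL_27 mature dendritic cells. Control mature dendritic cells lie above T cells, also by CPM, at 97.7 against 19.0 CPM in control. What free RNA added to the dendritic values was not tested. cDC2 went the other way, with 15 Arg1 UMIs in 7 IL_27 cells and 4 in 2 control cells, 1 UMI short of the minimum for a call, and a ratio of 5.01 (1.60 to 20.7), or 1.97 with equal weight for every cell.

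Other genes of the 2 pathways, in 6 lists of 76 genes without the members, were counted by the same rule. In C1q macrophages 6 of 54 tested were higher and 0 lower, against 7.5% and 6.5% of all genes. In Dcstamp macrophages 2 and 1 of 56 were, against 5.94% and 7.38%, in monocytes 7 and 2 of 52, against 7.66% and 10.0%, and in neutrophils 9 and 1 of 52, against 13.2% and 8.49%. In cDC1 3 were higher and 4 lower of 54, against 10.5% and 7.76% of all genes. In cDC2 3 and 4 of 46 were, against 13% and 13.3%, and in mature dendritic cells 3 and 5 of 52, against 12.3% and 10.4%. In all of these dendritic classes both list shares lay below those of all genes, so no excess of lower genes was seen. The genes higher in C1q macrophages included Gatm, which moves the amidino group of arginine to glycine on the way to creatine, at 519.9 CPM in IL_27 and 342 CPM in control, and Slc7a5, a carrier of tryptophan and other large amino acids, at 16.3 and 8.02 CPM. In Dcstamp macrophages the arginine carrier Slc7a1 stood at 42.0 CPM in IL_27 and 27.6 CPM in control, with a ratio of 1.52 (1.22 to 1.90), and Dohh, which completes the hypusine made from spermidine, had a ratio of 0.650 (0.514 to 0.817). The other carrier, Slc7a2, had a ratio of 0.778 in these cells.

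In the list of the amino acid shortage response, Slc7a11, the cystine carrier and a target of Atf4, stood at 3257 CPM in IL_27 and 1577 CPM in control neutrophils, a ratio of 2.06 (2.02 to 2.11). It stood at 749 and 298 CPM in monocytes, a ratio of 2.52 (2.31 to 2.74), and at 695 and 386 CPM in Dcstamp macrophages, a ratio of 1.80 (1.70 to 1.90). In C1q macrophages its ratio was 1.46 (1.34 to 1.59), under the 1.5 rule. Outside these classes Slc7a11 was also higher by the rule in cDC1, mature dendritic cells, T cells and tumour cells. Atf4 itself, the transcription factor of this response, had a ratio of 1.60 (1.41 to 1.83) in monocytes. Asns, the asparagine synthetase and another Atf4 target, was at 0.656 (0.428 to 0.985) in neutrophils. By the same rule Asns was higher in cDC1, T cells and tumour cells. The list as a whole had a median log2 ratio of 0.28 in C1q macrophages, 0.21 in Dcstamp macrophages, 0.13 in monocytes and -0.19 in neutrophils, against 0.04, 0.00, -0.03 and 0.06 over all genes. The list median was 0.01 in cDC1, 0.49 in cDC2 and 0.10 in mature dendritic cells, against 0.03, -0.01 and 0.02. It was 0.42 in T cells, 0.55 in NK cells and 0.31 in tumour cells, against -0.01, -0.02 and 0.03. Only 4 list genes were tested in cDC2 and 3 in NK cells.

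Among the nitric oxide genes 1 of 7 tested was higher in C1q macrophages (Ddah2, from 28 and 24 UMIs, a ratio of 1.63 with an interval of 0.909 to 2.93 that includes 1), against 7.5% of all genes, and none was higher or lower in the other 3 myeloid classes. Gch1, which makes the cofactor of nitric oxide synthase, had ratios of 0.852 (0.730 to 0.993) in C1q macrophages, 1.03 (0.893 to 1.19) in Dcstamp macrophages and 1.09 (0.941 to 1.26) in monocytes. In the kynurenine list, Ahr, a receptor for kynurenine, stood at 190.4 CPM in IL_27 and 119 CPM in control monocytes, a ratio of 1.59 (1.38 to 1.85). Among 15 listed regulators of Arg1 and Nos2, Nfkb1 had a ratio of 1.61 (1.55 to 1.67) in neutrophils and Il6st 1.51 (1.13 to 2.01) in C1q macrophages. This list had 2 higher and 0 lower of 14 tested in neutrophils, against 13.2% and 8.49% of all genes. In C1q macrophages 1 was higher and 0 lower of 14, against 7.5% and 6.5%. The list medians were 0.06 and 0.03 in log2, against 0.06 and 0.04 over all genes. Rela, at 0.683 (0.622 to 0.748), and Irf1, at 0.732 (0.668 to 0.802), lay below 1 in neutrophils, short of the rule. The IL-27 receptor chain Il27ra was nearly unread in the myeloid classes, with 2 and 6 UMIs in C1q macrophages and 2 and 2 in neutrophils.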

How the data were processed

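The authors deposited 1 matrix per group, holding whole-number UMI counts for every gene and barcode with no normalization. The libraries were made with a 10x Genomics 5′ kit, per the labels' protocols. The submitters' processing notes name Cell Ranger 4.0, Seurat 3.2.0 and mm10. The labels list 4 entries, 2 per group, but no cell can be placed in an entry, so n is 1 per group and no test was run. The matrices hold 43868189 (IL_27) and 54049661 (control) UMIs, and 133 barcodes occur in both.

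Cells were kept with 200 or more genes, 500 or more UMIs and less than 10% mitochondrial UMIs (9990 of 10183 in IL_27, 10617 of 10784 in control). A cell took the class with the highest share of its markers detected, with at least 3 markers. It was mixed where another lineage had 3 markers and at least 0.5 of that share. This rule was set after marker detection was seen. Doublets were not removed, and the 8% of cells with the highest Scrublet scores (scanpy 1.11.5) were left out as an alternative. Clustering (2000 variable genes without the members, 30 components, 15 neighbours, Leiden resolution 1.0) gave 25 clusters. Of 14242 cells with both a class and a named cluster, 93.9% had the same name.

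CPM has exact Poisson, shares Clopper-Pearson and ratios conditional binomial intervals (scipy 1.17.1), all 95% and for counting error only. At a count of 0 the limit is 3 counts. For equal depth, cells under 1000 UMIs were left out (226 and 199 C1q macrophages, 49 and 27 Dcstamp macrophages, 655 and 511 neutrophils in IL_27 and control), and the chance of a UMI among 1000 drawn without replacement was averaged over cells. The ratio step was checked on simulated counts.

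The members, gene lists and markers were chosen with earlier results of these data known. Named list genes had a ratio of at least 1.5 either way with 50 UMIs, at most 4 per list and direction. Gch1, Il27ra, Slc7a11 in C1q macrophages, dendritic, T and tumour cells, the T cell gates and the clusters described were picked after their values were seen. So were Asns outside neutrophils, Rela and Irf1. The likeness genes have the 5 highest Pearson r of log2(CPM + 1) among genes with 20 CPM in 1 pool, markers left out. Unmapped per-sample columns: 0. Genome sequence and proteins were not used here.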

Additional observations from a re-analysis of the deposited data

Results flagged for a closer look

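Arg1 differed in opposite directions between classes. In neutrophils the ratio of IL_27 over control was 1.63, while it was 0.273 in cDC1 and 0.252 in mature dendritic cells. All 3 intervals lay clear of 1. The neutrophil value was below the 1.5 rule at 1.36 inside the neutrophil clusters, 1.21 with classes from clusters, 1.41 with equal weight for every cell and 1.44 with mixed cells kept. It stayed above the rule at 1.52 when scaled by TMM, and without the top doublet scores it rose above the upper end of its counting interval. At equal depth the Arg1 shares of cDC1 and of IL_27 mature dendritic cells lay near those of T cells. Control mature dendritic cells lay above control T cells, with expected shares of 3.99% and 1.76% and levels of 97.7 and 19.0 CPM. The third dendritic class, cDC2, went the other way, at 5.01 (1.60 to 20.7) from 15 and 4 UMIs. The difference between the classes was not tested, since each group is 1 matrix.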

How the results depend on the processing

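No paired analysis was possible because each group is 1 matrix, and for the same reason no replicate could be left out. Equal weight for every cell, mixed cells kept in their leading class and the share expected over all draws were added after seeing the data. Of the 49 ratios, leaving out shared barcodes, leaving out the top cell or dropping the mitochondrial limit moved none beyond its counting interval. Classes from clusters moved 14 of the 47 it could give, equal weight 15, mixed cells kept 5, TMM 4 and leaving out the top 8% of doublet scores 4; the cause was not tested. No called value changed direction.

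Scaling by TMM moved Arg2 in neutrophils to 0.947 and Arg1 in C1q macrophages to 0.985. Equal weight gave Arg1 in C1q macrophages 1.10, Ass1 in mature dendritic cells 0.459 and Odc1 in T cells 1.40. Classes from clusters gave Nos2 in Dcstamp macrophages 0.735, and mixed cells kept gave Nos2 in monocytes 0.412. Mixed cells kept also ended the call of Il4i1 in neutrophils, at 0.871, and classes from clusters that of Il4i1 in C1q macrophages, at 0.669. Without the top doublet scores Arg1 in neutrophils was at 2.01.

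The share of Arg1-bearing C1q macrophages with Nos2 became 2.56% by 1 draw of 1000 UMIs, 2.41% over all draws and 1.70% with 2 UMIs needed in IL_27, and 5.29%, 4.86% and 3.22% in control, where classes from clusters gave 6.51%. In Dcstamp macrophages it became 5.78%, 4.29% and 4.19% in IL_27 and 4.07%, 4.90% and 8.05% in control, and classes from clusters gave 3.83% and 5.88%. The single draw put IL_27 above control in Dcstamp macrophages, against the CPM, and was not used for that order.

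With no minimum on UMIs 4 pairs of member and class were higher and 24 lower. The listed genes then came to 10 higher and 5 lower in C1q macrophages, and to 7 and 3 in Dcstamp macrophages. Some of the lower pairs rest on a single UMI, such as Ass1 in tumour cells, with 0 UMIs in IL_27 and 1 in control. No share of all genes without the minimum is given here, so these counts are not read as a direction. Depth limits the rare genes: Ido1 had enough UMIs for a ratio in 2 classes, Nos2 in 4, and Arg2 and Slc7a2 in 5 each, of 10.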
